A study of Ovis aries with 15 samples.

Results

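FOS, JUN, JUNB, MYC, ZFP36 and CCN1 are immediate early genes, and every probe for them on a sheep expression array was followed across fetal kidney cortex after maternal hypoxia, with or without ketamine. The genes were picked by name. The array names JUN and MYC by their older symbols C-JUN and C-MYC, and CCN1 (formerly CYR61) by a RefSeq gene ID. They gave 14 probes (4 for FOS and 2 for each of the other genes) among 15008 probes, and 6 of the 1020 gene names that could be attached to the array. All 14 probes passed the filter on dim signal, which kept 12927 probes that were well above background on at least 3 of the 15 arrays.

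The arrays came from 15 chronically catheterised fetal sheep at 125 ± 3 days of gestation, where term is 145 to 147 days. There were 4 hypoxia ketamine fetuses, 4 hypoxia vehicle fetuses, 4 normoxia ketamine fetuses and 3 normoxia vehicle fetuses. Hypoxia lasted 30 min and was imposed by lowering the oxygen that the ewe breathed, and normoxia fetuses had an equal period without it. Ketamine, a blocker of NMDA-type glutamate receptors used as an anaesthetic, was given to the fetus by vein at 3 mg/kg, 10 min before hypoxia, and vehicle was saline. All tissue was taken 24 h after the onset, so each array is 1 fetus at a single late time, and the groups share the surgery and the catheters. The labels do not state breed, sex or ewe.

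Immediate early genes are transcribed within minutes of a growth factor, cytokine or stress signal, without new protein synthesis, and most of their mRNAs are short-lived. FOS and JUN family proteins pair through leucine zippers to form AP-1, a transcription factor that binds many promoters of cytokine, protease and matrix genes. MYC pairs with MAX and drives growth and metabolic genes, ZFP36 (tristetraprolin) binds AU-rich elements and speeds the decay of cytokine mRNAs, and CCN1 is a secreted matrix protein that signals through integrins. In kidney, these genes are well known to respond to ischaemia and to injury of the tubule.

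The probes are 60 bases long, and their sequences show which part of each mRNA was read and which probes are near copies of each other. The 2 FOS probes below, in the stretch that codes for the leucine zipper, share 59 bases, which are in capitals, so they are close to a repeated measurement of 1 site.
FOS A_70_P016317: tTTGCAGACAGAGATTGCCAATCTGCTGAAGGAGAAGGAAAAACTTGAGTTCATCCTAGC
FOS A_70_P016316: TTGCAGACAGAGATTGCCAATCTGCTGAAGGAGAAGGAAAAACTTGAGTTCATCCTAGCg
The same holds for the CCN1 pair, with the shared bases again in capitals, and for the JUNB pair, which also shares 59 bases.
CCN1 A_70_P036182: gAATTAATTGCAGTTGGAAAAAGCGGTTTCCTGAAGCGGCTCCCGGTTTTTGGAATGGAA
CCN1 A_70_P036181: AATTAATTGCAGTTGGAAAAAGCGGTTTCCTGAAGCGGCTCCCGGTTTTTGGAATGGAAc
The JUNB probes run over the stop codon, in capitals, and only their coding part is shown.
JUNB A_70_P041672: caagggacacgccttcTGA
JUNB A_70_P041671: aagggacacgccttcTGA

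JUN and ZFP36 are the genes whose 2 probes differed most in the size of their change, and those probes read separate sites. One JUN probe lies in the part that codes for the amino-terminal activation domain, and the other has 75% G and C and holds 5 CAG repeats in a row, in capitals.
JUN A_70_P016311: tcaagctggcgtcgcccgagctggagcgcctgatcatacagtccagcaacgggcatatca
JUN A_70_P016313: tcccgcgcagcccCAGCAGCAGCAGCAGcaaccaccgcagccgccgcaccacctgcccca
For ZFP36, A_70_P030386 covers the start of the zinc finger region that binds RNA, and A_70_P030387 ends at the stop codon, in capitals.
ZFP36 A_70_P030386: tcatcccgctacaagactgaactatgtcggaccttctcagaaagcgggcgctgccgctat
ZFP36 A_70_P030387: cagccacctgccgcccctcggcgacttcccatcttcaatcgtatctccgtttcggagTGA
A further FOS probe covers the stretch that codes for the basic region, which contacts DNA.
FOS A_70_P001561: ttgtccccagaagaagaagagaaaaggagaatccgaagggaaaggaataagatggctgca
The 2 MYC probes share 20 bases, and with the FOS probe A_70_P026731 they are not shown. The array's annotation lists these probes as unmapped on the genome, so no chromosome position is given.

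Signals below are Agilent processed intensities, scaled so that the 75th percentile of each array is 1000. They compare arrays for a single probe, not probes with each other. The 75th percentile before scaling was 1064 to 1425 intensity units, and 75.6% to 85.2% of probes were well above background on each array. Hypoxia vehicle replicate 4 and hypoxia ketamine replicate 2 had the lowest median correlations with the other arrays (0.952 and 0.966). The tubule markers AQP1, AQP2 and SLC34A1 and the podocyte marker WT1 were well above background on all 15 arrays. The placental lactogen gene CSH1 was well above background on 3 arrays, 1 from hypoxia ketamine (replicate 2) and 2 from normoxia ketamine (replicates 1 and 2). The arrays lay on 2 slides, with every group on both.

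The members shared a single pattern. Hypoxia vehicle replicates 1 and 4 were the 2 brightest of the 15 arrays on 14 of 14 probes, and among all probes tested 4.89% had these 2 arrays on top. This pair of arrays was picked after the member values were seen, so the count describes the pattern and does not test it. Some of the 14 probes are also near copies of each other and are not independent. The other hypoxia vehicle arrays, replicates 2 and 3, lay much nearer to the normoxia arrays. The distance between the second and the third brightest array was 0.64 to 3.36 on the log2 scale over the 14 probes. Replicate numbers are those of the scanner files, and the deposited table of values numbers the arrays within groups differently. Replicate 1 is on slide 2 and replicate 4 on slide 1, so each slide held a bright and a dim hypoxia vehicle array.

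**Figure D1:**
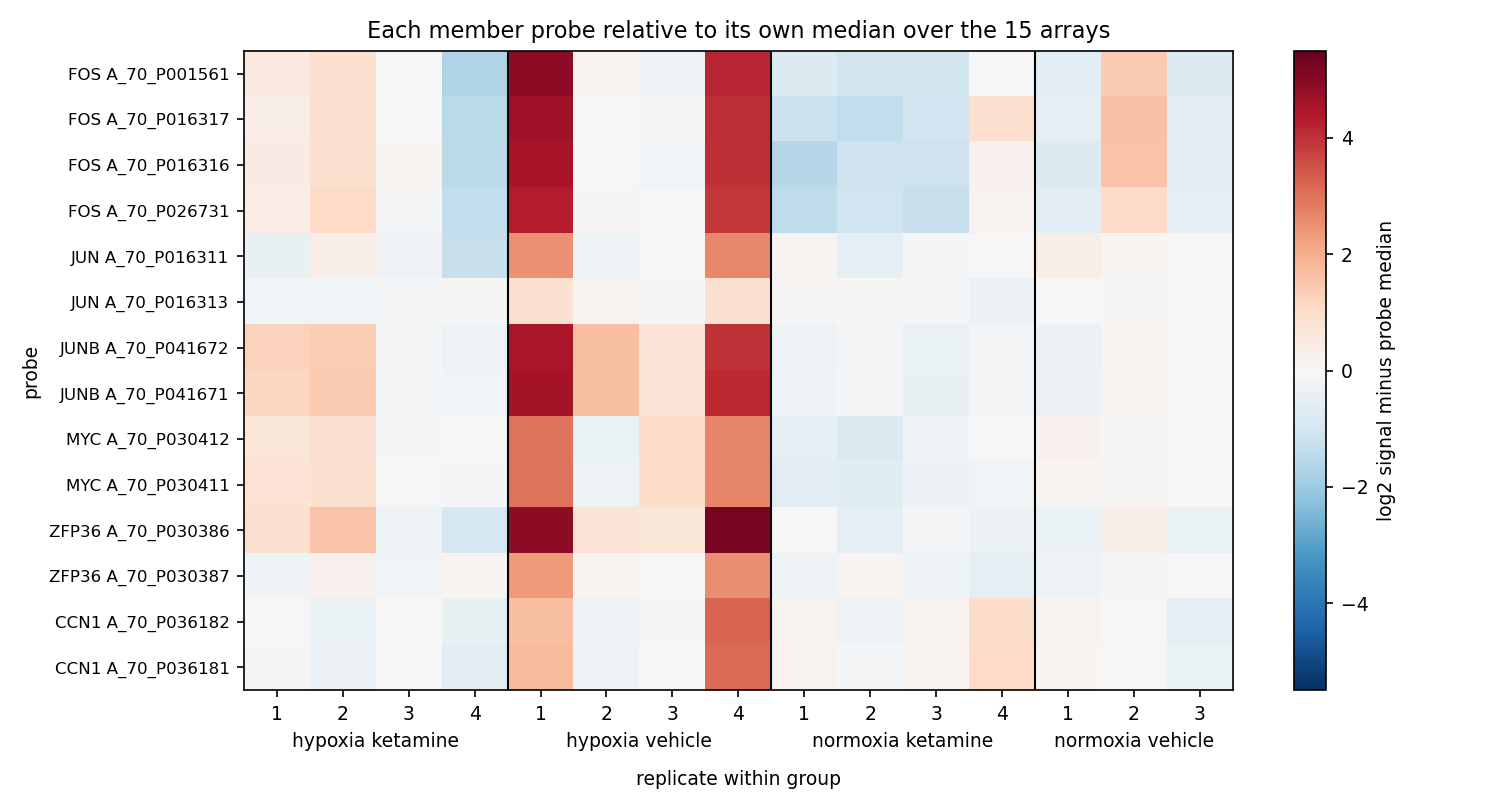
Each row is a member probe and each column an array (hypoxia ketamine, hypoxia vehicle, normoxia ketamine, normoxia vehicle, with replicate numbers below). Colour gives the log2 signal minus that probe's median over the 15 arrays. The columns of hypoxia vehicle replicates 1 and 4 are the reddest in all 14 rows, and the palest change is that of the JUN probe A_70_P016313.

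FOS encodes the protein that pairs with JUN proteins in AP-1. Its brightest probe, A_70_P026731, had signals of 1518, 2443, 1111 and 454 in hypoxia ketamine replicates 1 to 4 and 22758, 1206, 1152 and 16995 in hypoxia vehicle replicates 1 to 4. It had 444, 541, 483 and 1319 in normoxia ketamine replicates 1 to 4, and 737, 2368 and 807 in normoxia vehicle replicates 1 to 3. Normoxia vehicle replicate 2 was above hypoxia vehicle replicates 2 and 3, so these groups overlapped. Against the normoxia vehicle mean, hypoxia vehicle replicates 1 and 4 were 20.3-fold and 15.2-fold higher, while replicates 2 and 3 stood at 1.08-fold and 1.03-fold. The other 3 FOS probes followed it closely, with correlations of 0.986 to 0.996 over the 15 arrays between FOS probes. A_70_P001561 was not well above background on normoxia ketamine replicate 2 and hypoxia ketamine replicate 4.

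JUN, the partner that AP-1 dimers most often contain, had unlike probes. On A_70_P016313 the signals were 9264, 9272, 9620 and 10514 in hypoxia ketamine fetuses and 18234, 11407, 9781 and 18117 in hypoxia vehicle fetuses. They were 10686, 10572, 9575 and 8219 in normoxia ketamine fetuses and 10152, 9468 and 10443 in normoxia vehicle fetuses. Hypoxia vehicle replicates 1 and 4 were 1.82-fold and 1.81-fold above the normoxia vehicle mean, the smallest folds of those arrays on any member probe. On A_70_P016311 the signals were 334, 572, 385 and 182 in hypoxia ketamine fetuses and 2536, 378, 437 and 2723 in hypoxia vehicle fetuses. They were 480, 307, 405 and 439 in normoxia ketamine fetuses and 552, 480 and 444 in normoxia vehicle fetuses. Here the same 2 arrays were 5.18-fold and 5.56-fold above the normoxia vehicle mean, and hypoxia vehicle replicates 2 and 3 were below it. The 2 JUN probes correlated at 0.832, the lowest value for any pair of probes of a single member gene.

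JUNB, a JUN relative that can act as a weaker or competing AP-1 partner, was raised on all 4 hypoxia vehicle arrays. A_70_P041671 had 468, 561, 196 and 188 in hypoxia ketamine fetuses and 4891, 655, 343 and 3531 in hypoxia vehicle fetuses. It had 176, 198, 157 and 193 in normoxia ketamine fetuses and 168, 237 and 207 in normoxia vehicle fetuses. All 4 hypoxia vehicle arrays were above all 3 normoxia vehicle arrays, with replicates 2 and 3 at 3.24-fold and 1.70-fold over the normoxia vehicle mean. In the ketamine arm, hypoxia ketamine replicates 1 and 2 were above every normoxia array, and replicates 3 and 4 lay among them. The near-copy probe A_70_P041672 correlated with it at 0.999.

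MYC is a regulator of growth and metabolism. A_70_P030412 had 2035, 2326, 1217 and 1270 in hypoxia ketamine fetuses and 10177, 994, 2574 and 8244 in hypoxia vehicle fetuses. It had 907, 734, 1086 and 1256 in normoxia ketamine fetuses and 1474, 1312 and 1260 in normoxia vehicle fetuses. Hypoxia vehicle replicate 2 was below all normoxia vehicle arrays, and replicate 3 was 1.91-fold above their mean. On A_70_P030411 hypoxia ketamine signals of 1321, 1400, 762 and 736 were all above normoxia ketamine signals of 516, 486, 615 and 676.

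ZFP36, the decay factor for cytokine mRNAs, was bright on the same 2 arrays on both probes. A_70_P030387 had 1434, 1914, 1466 and 1739 in hypoxia ketamine fetuses and 8189, 1828, 1631 and 9562 in hypoxia vehicle fetuses. It had 1382, 1797, 1366 and 1139 in normoxia ketamine fetuses and 1326, 1517 and 1659 in normoxia vehicle fetuses. Outside hypoxia vehicle replicates 1 and 4 the groups overlapped. The zinc finger probe A_70_P030386 had 29.9, 47.5, 13.3 and 8.37 in hypoxia ketamine fetuses and 487, 27.5, 25.4 and 609 in hypoxia vehicle fetuses. It had 16.1, 11.4, 15.3 and 12.8 in normoxia ketamine fetuses and 12.3, 20.9 and 12.4 in normoxia vehicle fetuses. On this probe all 4 hypoxia vehicle arrays were above all normoxia arrays. It was not well above background on hypoxia ketamine replicate 4.

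CCN1 encodes the secreted matrix protein. Its probe A_70_P036181 had 276, 214, 256 and 177 in hypoxia ketamine fetuses and 893, 220, 263 and 2285 in hypoxia vehicle fetuses. It had 299, 253, 301 and 556 in normoxia ketamine fetuses and 282, 261 and 203 in normoxia vehicle fetuses. Replicate 4 was the brightest, at 9.29-fold over the normoxia vehicle mean, and replicate 1 was 3.63-fold over it. The third brightest of the 15 arrays was normoxia ketamine replicate 4, not a hypoxia array.

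**Figure D2:**
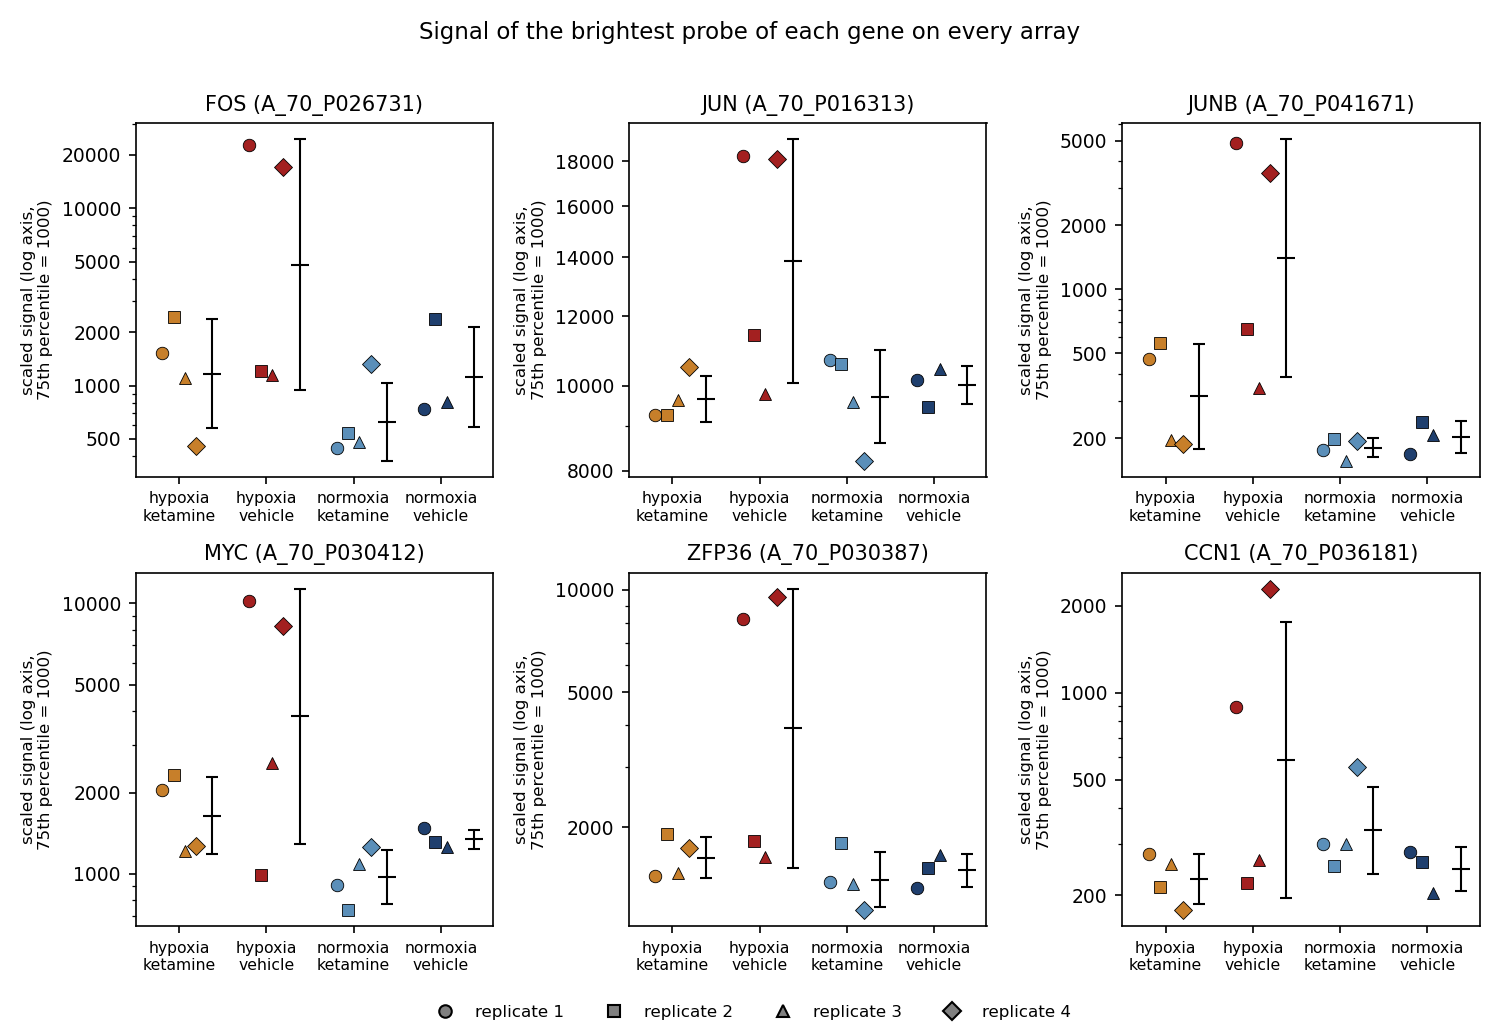
Scaled signal (log axis, 75th percentile of each array at 1000) of the brightest probe of each gene on all 15 arrays, by group, with 1 marker shape per replicate number. The bar beside each group is the mean ± SD of log2 signal. In every panel the circle and the diamond of hypoxia vehicle stand above the other 13 arrays, and the hypoxia vehicle bar is the longest.

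By group mean on the log2 scale, hypoxia vehicle was the highest of the 4 groups on all 14 probes. For the brightest FOS probe the geometric means were 1170 in hypoxia ketamine, 4810 in hypoxia vehicle, 626 in normoxia ketamine and 1120 in normoxia vehicle fetuses. For JUNB A_70_P041671 they were 314, 1400, 180 and 202 in the same order of groups. The spread was as uneven as the level. The median SD of log2 signal over the 14 probes was 0.755 in hypoxia ketamine, 1.73 in hypoxia vehicle, 0.306 in normoxia ketamine and 0.25 in normoxia vehicle fetuses, while over all probes it was 0.238, 0.29, 0.206 and 0.176. Differences of hypoxia ketamine from normoxia ketamine, and of normoxia ketamine from normoxia vehicle, did not pass limma's test on any member probe, and hypoxia ketamine was not tested against normoxia vehicle.

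Whether hypoxia alone changed the genes is the comparison of hypoxia vehicle with normoxia vehicle fetuses. JUNB, MYC and ZFP36 rose on both of their probes and JUN rose on 1 of its 2. FOS and CCN1 did not pass on any probe, although their fitted values were above 0. In all, 7 of 14 member probes, from 4 of 6 genes, were higher, and 0 were lower, by the study's own cut-off (p at or under 0.05 before adjustment). Of all probes tested, 5.77% were higher and 10.4% lower. After Benjamini-Hochberg adjustment over all probes, 0 member probes passed, and the lowest adjusted p in limma was 0.163. Of all probes 2 passed it, or 0.0155%.

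JUNB A_70_P041671 was 6.94-fold higher in hypoxia vehicle fetuses (log2 change 2.80 ± 0.745, SE; adjusted p = 0.163). ZFP36 rose by 3.03 ± 1.01 on the zinc finger probe (adjusted p = 0.199) and by 1.39 ± 0.52 on the probe at the stop codon (adjusted p = 0.231), a difference of 1.64 between its probes. MYC rose by 1.51 ± 0.61 and 1.55 ± 0.59 (adjusted p = 0.258 and adjusted p = 0.237). JUN A_70_P016313 rose by 0.47 ± 0.20 (adjusted p = 0.272), while A_70_P016311 had the larger value of 1.08 ± 0.63 and did not pass (adjusted p = 0.412). The 4 FOS probes had values of 2.03 to 2.26 with adjusted p of 0.32 to 0.391, and the 95% interval of A_70_P026731 ran from -0.06 to 4.27. The CCN1 values were 1.21 and 1.25 (adjusted p = 0.366 and adjusted p = 0.333).

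All hypoxia vehicle arrays were above all normoxia vehicle arrays on 3 of 14 probes (the JUNB pair and ZFP36 A_70_P030386), against 5.03% of all probes, and below them on 0, against 9.56%. By an exact permutation test over arrays, two-sided, JUNB gave p = 0.0571 on both probes and no other member probe went below 0.114, where 0.0286 is the smallest value that 4 against 3 arrays allow. Median member change was 1.79, against -0.05 for all probes. Within slide 1 the median was 1.53 and within slide 2 it was 2.31, and all 14 values were above 0 on each slide. Each slide held 1 of the bright hypoxia vehicle arrays, so the slides are not separate support for a rise. Slide 2 held 1 normoxia vehicle array.

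Of the 7 calls, 5 were lost without the 2 bright arrays. With hypoxia vehicle replicate 1 or replicate 4 left out, 3 member probes passed, and with replicate 2 or replicate 3 left out all 14 passed. Leaving out replicates 1 and 4 together, a step chosen after seeing the data, left 2 calls, the JUNB probes, at 1.23 each. FOS values then lay between -0.18 and 0.07, and CCN1 values at -0.10 and -0.03. The ketamine arrays enter this fit through the shared spread, and with only the vehicle groups fitted 3 member probes passed.

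**Figure D3:**
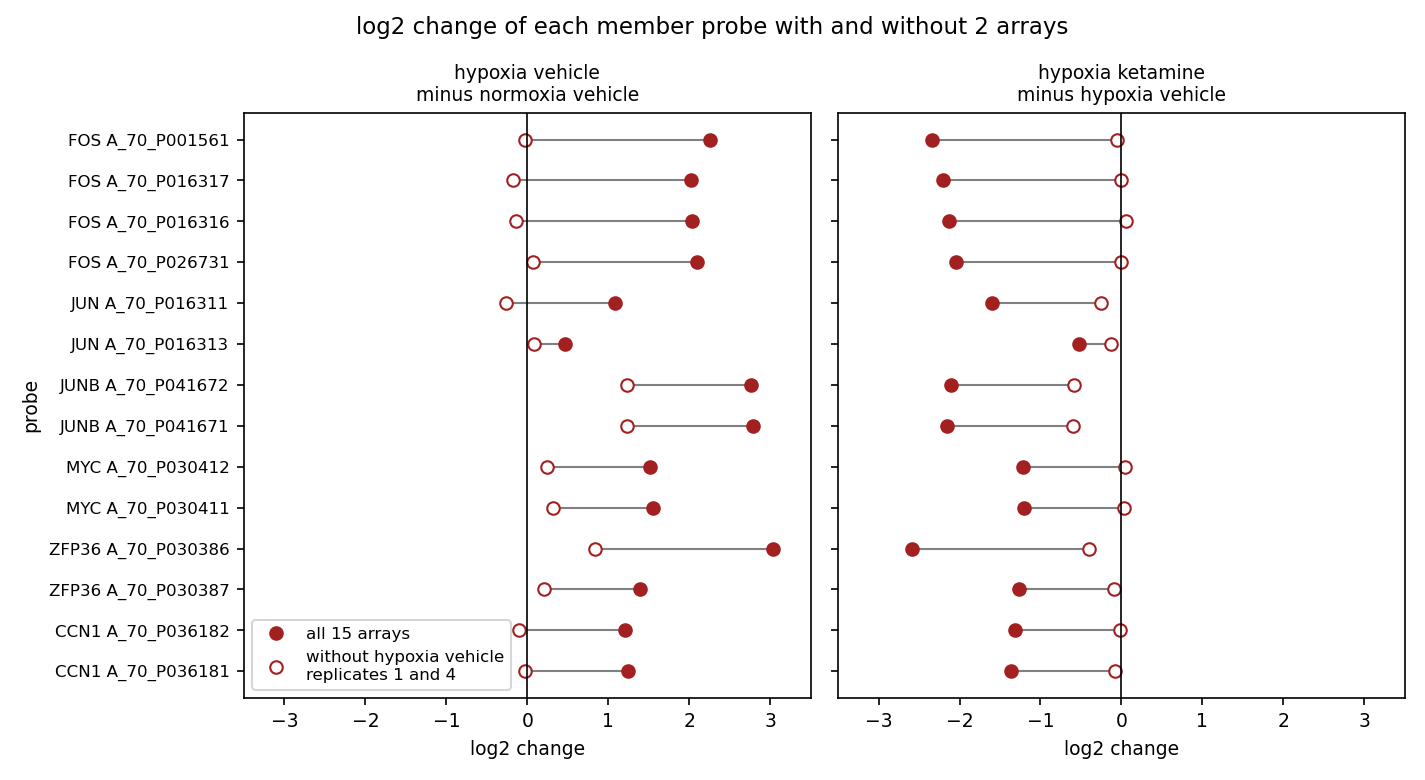
log2 change of each member probe from all 15 arrays (filled) and without hypoxia vehicle replicates 1 and 4 (open), for hypoxia vehicle minus normoxia vehicle (left) and hypoxia ketamine minus hypoxia vehicle (right). Open points lie nearer 0 than filled ones in every row, and those farthest from 0 are JUNB, at 1.23 on the left and -0.59 and -0.60 on the right, and ZFP36 A_70_P030386, at 0.84 and -0.41.

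Hypoxia in the presence of ketamine was read from hypoxia ketamine against normoxia ketamine fetuses. No member passed: 0 of 14 probes were called, against 8.67% of all probes (3.71% higher and 4.97% lower). The fitted values were 0.62 to 0.90 for FOS, 0.75 and 0.83 for MYC, 0.80 on both JUNB probes and 0.53 and 0.21 for ZFP36. They were -0.24 and -0.01 for JUN and -0.48 and -0.56 for CCN1. Intervals were wide: for JUNB A_70_P041671 the 95% interval ran from -0.69 to 2.28. MYC A_70_P030411 was the single member probe on which all hypoxia ketamine arrays were above all normoxia ketamine arrays (2.82% of all probes; 3.67% were lower without overlap, and 0 member probes), with an exact permutation p of 0.0286, the smallest possible here. The hypoxia vehicle arrays enter this fit through the shared spread, and with its replicate 2 left out 1 member probe passed. Without replicates 1 and 4 of that group, a step chosen after seeing the data, calls over all 12927 probes went from 1121 to 1533. Then 5 member probes passed: JUNB at 0.80 on both probes, MYC at 0.75 and 0.83, and CCN1 A_70_P036181 at -0.56. These fitted values are the same as with all arrays, so the estimate of spread changed and the differences of means did not.

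What ketamine did in hypoxic fetuses was read from hypoxia ketamine against hypoxia vehicle fetuses. All 6 genes fell on at least 1 probe, and 12 of 14 member probes were lower before adjustment and 0 higher, against 3.49% of all probes lower and 2.58% higher (6.07% either way). JUNB A_70_P041671 was at 0.224 of the hypoxia vehicle level (log2 change -2.16 ± 0.69), and ZFP36 fell by 2.59 ± 0.94 and by 1.27 ± 0.48. JUN fell by 1.60 ± 0.58 and by 0.52 ± 0.18, and CCN1 fell by 1.32 ± 0.59 and by 1.37 ± 0.57. MYC fell by 1.22 ± 0.56 and by 1.20 ± 0.55. FOS fell by 2.34 ± 1.04 and by 2.04 ± 0.931 on 2 of its 4 probes, and the other 2 stood at -2.21 and -2.13 without passing. Of the 12 calls, 0 held after adjustment over all probes in limma, where the members' adjusted p values were 0.8 to 0.804 and 0 probes of the whole array passed. The normoxia arrays enter this fit through the shared spread. The median member SD was 0.306 in normoxia ketamine and 0.25 in normoxia vehicle, against 0.755 in hypoxia ketamine and 1.73 in hypoxia vehicle fetuses. With only the hypoxia groups fitted, 3 of the 14 member probes passed, and calls over all 12927 probes went from 785 to 432.

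The 2 groups overlapped on all 14 probes, since hypoxia vehicle replicates 2 and 3 lay within the hypoxia ketamine range or close to it, and 0.928% of all probes were lower without overlap. No exact permutation p for a member was below 0.0571, against a possible 0.0286. The within-slide medians were -1.99 on slide 1 and -1.82 on slide 2, beside -1.82 for all arrays, and all 14 values were below 0 on each slide. Each slide held a bright hypoxia vehicle array, so the slides are not separate support for a fall. Without hypoxia vehicle replicate 1, 2 member probes passed; without replicate 4, 3 passed; and without replicate 2 or 3, all 14 passed. The count was 4 without hypoxia ketamine replicate 4 and 7 without hypoxia ketamine replicate 3, normoxia ketamine replicate 1 or normoxia ketamine replicate 3. Leaving out hypoxia vehicle replicates 1 and 4 together left 0 of the 12 calls, and the values of both MYC probes (0.04 and 0.03) and of FOS A_70_P016316 (0.05) were then above 0. The hypoxia vehicle arrays serve this comparison and the one against normoxia vehicle, so the higher calls there and the lower calls here share their 4 arrays.

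**Figure D4:**
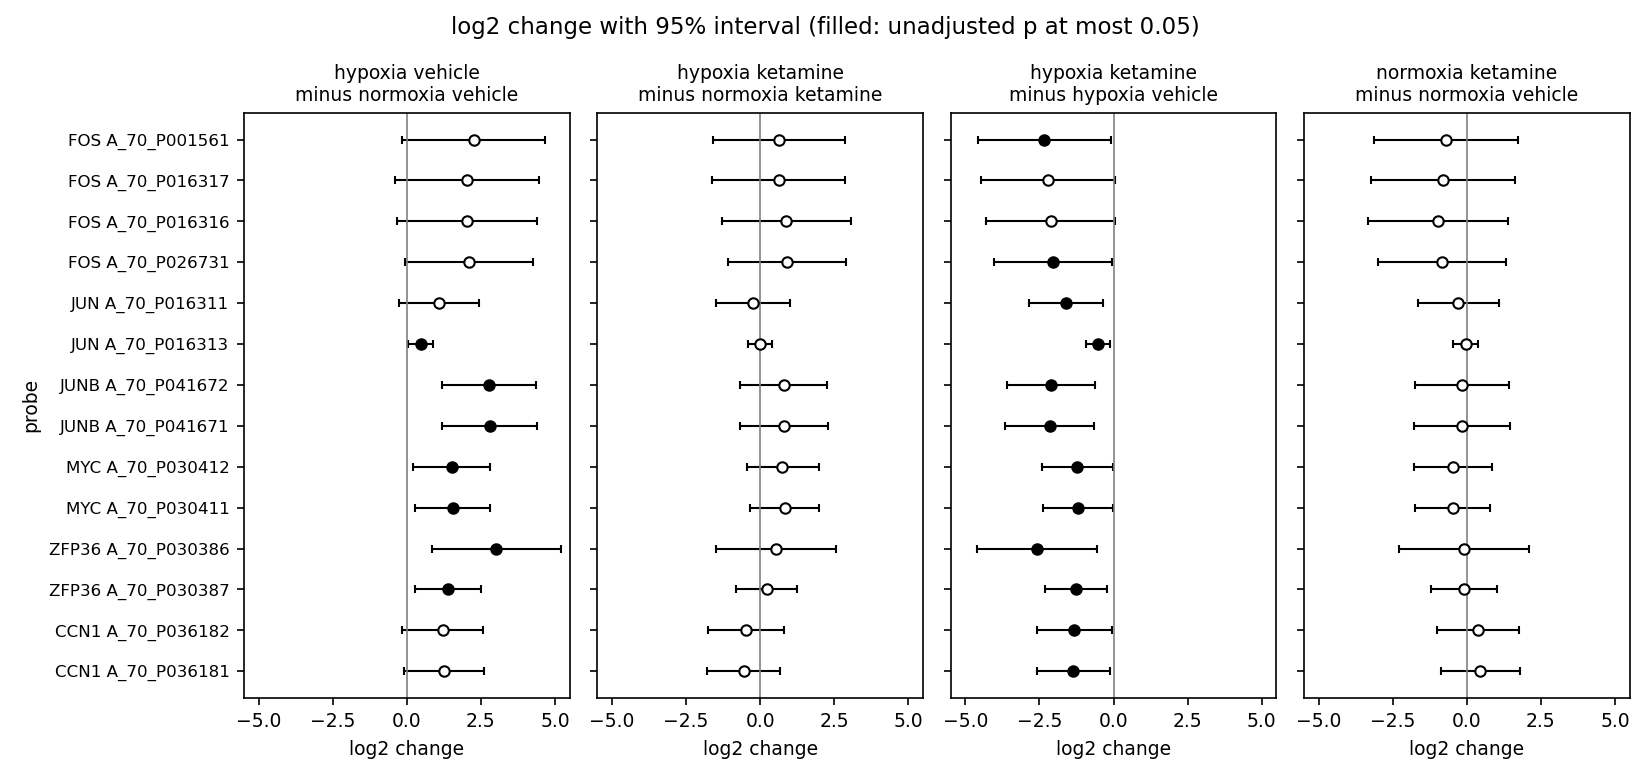
log2 change (points) with 95% intervals (bars) of the 14 member probes in 4 comparisons, each named as the group minus the group it was set against. Filled points passed the cut-off before adjustment. There are 7 filled points right of 0 in the first panel, 12 left of 0 in the third and 0 in both others.

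Ketamine without hypoxia was read from normoxia ketamine against normoxia vehicle fetuses. No member passed, with 0 of 14 probes called against 2.71% of all probes (0.951% higher and 1.76% lower). MYC was lower without overlap on both probes, as were 4.57% of all probes (2.48% were higher without overlap), at -0.46 ± 0.61 and -0.47 ± 0.59, with an exact permutation p of 0.0571 for each. FOS stood at -0.71 to -0.97, and the 95% interval of A_70_P026731 ran from -3.01 to 1.32. CCN1 stood at 0.37 and 0.45. The hypoxia arrays enter this fit through the shared spread. On MYC A_70_P030411 the SD of log2 signal was 0.222 in normoxia ketamine and 0.0717 in normoxia vehicle, against 1.52 in hypoxia vehicle fetuses. With only the normoxia groups fitted, 2 member probes passed, and calls over all 12927 probes went from 350 to 673.

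The test of whether ketamine altered the response to hypoxia is the interaction. The 14 values were all below 0, at -0.48 to -2.49, and 0 passed, against 3.15% of all probes (2.05% higher and 1.1% lower), with adjusted p of 0.989 for each. CCN1 A_70_P036181 came nearest to passing, at -1.81 ± 0.84, followed by the JUNB probes at -1.995 ± 1.01 and -1.96 ± 1.01. The higher calls in the vehicle arm and their lack in the ketamine arm are thus not shown to differ by this test. Without hypoxia vehicle replicate 2, 9 member probes passed, and without replicate 3, 7 passed. Without replicates 1 and 4 together 0 passed, and the values ran from -0.53 for CCN1 A_70_P036181 to 1.02 for FOS A_70_P016316.

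Averaged over both drug arms, JUNB, MYC and ZFP36 rose with hypoxia on both probes and FOS on 1 of 4, which made 7 of 14 probes higher and 0 lower, against 7.81% of all probes higher and 12.5% lower (20.3% either way). JUNB was 3.48-fold and 3.43-fold higher (1.80 ± 0.51 and 1.78 ± 0.50), with exact permutation p of 0.00816 and 0.00898 when labels were permuted within each arm. MYC was 2.19-fold and 2.28-fold higher, with exact permutation p of 0.0335 and 0.0216. ZFP36 rose by 1.78 and 0.80, with exact permutation p of 0.0592 and 0.0971. FOS A_70_P026731 rose by 1.502 (adjusted p = 0.237), with an exact permutation p of 0.0857. The ZFP36 and FOS calls thus did not pass the same cut-off in the permutation test, while the JUNB and MYC calls did. The lowest adjusted p of a member in limma was 0.082, so 0 passed after adjustment, while 207 probes of the whole array (1.6%) did. Within slide 1 the median member change was 1.095 and within slide 2 it was 1.47, beside 1.26 over all arrays, with a bright hypoxia vehicle array on each slide. Without hypoxia vehicle replicate 3 the count was 11. Without hypoxia vehicle replicates 1 and 4 it was 3: the JUNB pair at 1.02 and 1.01 and MYC A_70_P030411 at 0.575.

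Other immediate early genes were looked up from a list of 49, of which 7 were on the array under a name and tested. In hypoxia vehicle against normoxia vehicle fetuses, 3 rose and 0 fell, and the median of the 7 was 1.18. NFKBIA, which encodes a feedback inhibitor of NF-kB, rose 5.85-fold (2.55 ± 0.54; adjusted p = 0.114). CEBPB, a transcription factor of acute phase genes, rose 6.06-fold, and MCL1, a survival protein, rose 2.33-fold. EGR1 (0.64), JUND (0.55), PTGS2 (1.18) and CCN2 (0.18) did not pass. In hypoxia ketamine against hypoxia vehicle fetuses 3 fell and 0 rose: NFKBIA by 1.59, JUND by 0.96 and PTGS2, the inducible prostaglandin synthase, by 1.81.

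PTGS2 had 1430, 1810, 1380 and 1190 in hypoxia ketamine fetuses and 21400, 1040, 1340 and 21800 in hypoxia vehicle fetuses. It was thus high on hypoxia vehicle replicates 1 and 4 only, while replicate 2 was below all 4 hypoxia ketamine arrays and replicate 3 was within their range. Of the 7 genes, 6 had those replicates as their 2 brightest arrays. With both left out, a step chosen after seeing the data, 0 of the 7 passed in hypoxia ketamine against hypoxia vehicle fetuses, and PTGS2 stood at 0.28. In hypoxia vehicle against normoxia vehicle fetuses NFKBIA was then the single gene called higher, and PTGS2 fell by 0.91.

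NFKBIA signals were 8190, 8900, 2920 and 3920 in hypoxia ketamine fetuses and 27400, 8220, 7410 and 40900 in hypoxia vehicle fetuses. They were 2880, 2930, 3200 and 3260 in normoxia ketamine fetuses and 2740, 2420 and 3170 in normoxia vehicle fetuses. All 4 hypoxia vehicle arrays were above all 7 normoxia arrays for this gene, as they were on both JUNB probes and on ZFP36 A_70_P030386, and on no other member probe.

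Kinases, receptors and factors that act upstream of AP-1 made a list of 39, of which 7 were tested. ATF4, a stress-response factor, was the single gene of the 7 that rose in hypoxia vehicle against normoxia vehicle fetuses (0.73 ± 0.23; adjusted p = 0.178), and the median was 0.04. CREB1, which binds the FOS promoter, fell by 0.42 in hypoxia ketamine against hypoxia vehicle fetuses and by 0.38 in hypoxia ketamine against normoxia ketamine fetuses. MET, the receptor of hepatocyte growth factor, fell by 0.35 in the comparison of the ketamine groups. Without hypoxia vehicle replicates 1 and 4, ATF4 (0.31) and CREB1 in hypoxia ketamine against hypoxia vehicle fetuses (-0.25) did not pass.

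Among 15 tested genes of 25 listed as AP-1 targets, 6 rose and 1 fell in hypoxia vehicle against normoxia vehicle fetuses, with a median of 0.41. TNF rose 16.5-fold (4.05 ± 0.67; adjusted p = 0.0655), CXCL8, a neutrophil attractant, rose 23.6-fold, and PLAUR, the urokinase receptor, rose 5.16-fold. The cytokine IL6 cleared background on 2 of 4 hypoxia vehicle arrays, replicates 1 and 4 (2390 and 8050), and on 0 of 3 normoxia vehicle arrays. Its rise was thus measured on those replicates only, and no fold is given for the group. ICAM1 and GJA1 rose as well, and the gelatinase MMP2 fell by 0.67. In hypoxia ketamine against hypoxia vehicle fetuses, 4 of the 15 fell and 0 rose: CXCL8 fell by 3.31, TNF fell by 2.65, VEGFA fell by 0.69 and PLAU fell by 0.56. Without hypoxia vehicle replicates 1 and 4, 2 of these 4 calls held (TNF at -1.74 and VEGFA at -0.68), CXCL8 stood at -0.61 and PLAU at -0.04. In hypoxia vehicle against normoxia vehicle fetuses 5 of the 7 genes were then still called, and ICAM1 and GJA1 were not. Among the 5, IL6 then had signals of 9.36 and 10.3 in hypoxia vehicle and 1.81 to 2.45 in normoxia vehicle fetuses. None of these cleared background, so the IL6 call without replicates 1 and 4 is not a measured change. TNF and PLAUR also rose in hypoxia ketamine against normoxia ketamine fetuses, by 1.52 and 1.17, where no AP-1 member probe passed.

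The mRNAs that ZFP36 is known to bind overlap with that list. Of 9 tested from a list of 21, 4 rose in hypoxia vehicle against normoxia vehicle fetuses (TNF, IL6, CXCL8 and IL1B, the last 11.8-fold), with a median of 1.34. Without hypoxia vehicle replicates 1 and 4, 6 of the 9 were called higher there and 1 (PTGS2) lower, with a median of 1.86. The IL6 call among the 6 is not a measured change, as given above. IL10 was called higher only in that fit. Its signals were 3.46 and 8.98 on hypoxia vehicle replicates 1 and 4 and 76.1 and 103 on replicates 2 and 3, against 8.21 to 9.44 in normoxia vehicle fetuses. In hypoxia ketamine against hypoxia vehicle fetuses 5 fell, namely CXCL8, IL1B by 2.71, TNF, PTGS2 and VEGFA, with a median of -1.81. Without hypoxia vehicle replicates 1 and 4, 3 of these 5 held (TNF, VEGFA and IL1B, the last at -1.06), and the median was -0.61. TNF and IL1B, with NFKBIA, also passed the interaction test before adjustment, at -2.53, -2.66 and -1.74, which no member did. Of all probes 3.15% passed that test before adjustment and 0 after it. Each of these genes was brightest on hypoxia vehicle replicates 1 and 4, and their interaction without those arrays was not tested. Of 5 tested genes listed as MYC partners and targets, LDHA, the lactate dehydrogenase subunit of glycolysis, rose 2.39-fold and CDK4, a cell cycle kinase, fell by 0.31 in hypoxia vehicle against normoxia vehicle fetuses. The median of those 5 was -0.02, and 0 passed in hypoxia ketamine against hypoxia vehicle fetuses. Without hypoxia vehicle replicates 1 and 4 LDHA passed and CDK4 did not. Listed genes were called before adjustment, like the members. In hypoxia vehicle against normoxia vehicle fetuses their lowest adjusted p in limma was 0.0655, for TNF. For the mean hypoxia effect over both drug arms TNF (2.78; adjusted p = 0.0119), PLAUR (1.77; adjusted p = 0.0419) and NFKBIA (1.68; adjusted p = 0.0419) passed after adjustment over all probes in limma.

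The genes most like each member were ranked by Pearson r of log2 signal over the 15 arrays among 884 other named genes. These values are descriptive: the arrays share their scaling, and hypoxia vehicle replicates 1 and 4 set much of each value. JUNB was most like CXCL8 (r = 0.982), IL1B (0.971) and NFKBIA (0.963), and for these r was 0.905, 0.846 and 0.912 over the 13 other arrays. IL6 (0.946) and RHOB (0.937), a small GTPase induced by growth factors, completed its list. FOS was most like CXCL8 (0.928), RHOB (0.911), EGR1 (0.891), IL6 (0.888) and IL1B (0.884), and over the 13 other arrays these fell within 0.233 to 0.612.

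MYC shared only CXCL8 with the lists of other members. It was most like RCAN1, an inhibitor of calcineurin (r = 0.943, and 0.783 over 13 arrays), and FGF2, a growth factor (0.942 and 0.849). CXCL8 (0.93), the hexokinase gene HK1 (0.925) and HIF1A (0.924), which encodes the oxygen-regulated subunit of HIF-1, followed. ZFP36 was most like RGS2 (0.948), RHOB (0.944), EGR1 (0.942), CXCL8 (0.942) and IL1B (0.932). JUN was most like PTGS2 (0.901), RGS2 (0.894), RHOB (0.887), IL1A (0.886) and IL1B (0.884), and over the 13 other arrays none of its values exceeded 0.31. CCN1 was most like JUND (0.914), EGR1 (0.85), EDN1 (0.849) and PTGS2 (0.841).

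**Figure D5:**
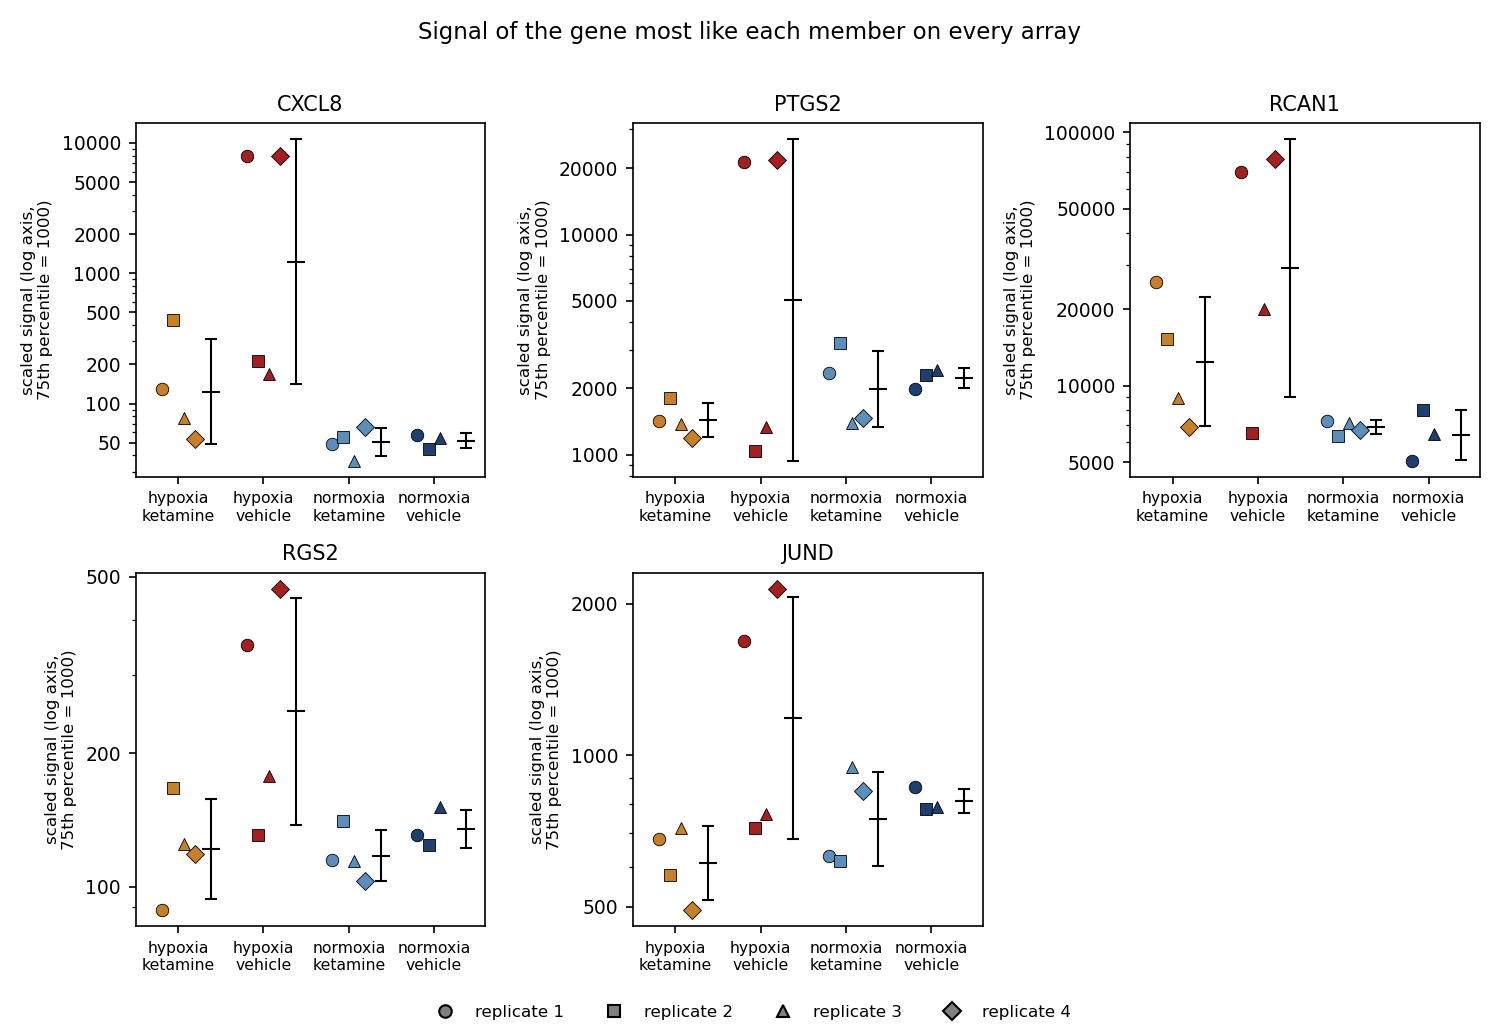
Scaled signal (log axis) on all 15 arrays of the genes that ranked first in likeness to a member: CXCL8 (FOS and JUNB), PTGS2 (JUN), RCAN1 (MYC), RGS2 (ZFP36) and JUND (CCN1). Markers and bars (mean ± SD of log2 signal) are by group and replicate. Hypoxia vehicle replicates 1 and 4 are the brightest arrays in each panel, and CXCL8 is at 213.5 and 167.3 on replicates 2 and 3, above all normoxia arrays.

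The members were also alike among themselves. Between the brightest probes of any 2 members r was 0.744 to 0.958 over the 15 arrays, highest for JUN with ZFP36 and lowest for JUNB with CCN1. Over the 13 arrays other than hypoxia vehicle replicates 1 and 4 the range was -0.843 to 0.646, with FOS and JUNB highest and ZFP36 and CCN1 lowest. FOS, JUNB and MYC stayed positively related to each other there (0.485 to 0.646).

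Markers of blood cells were also read on these arrays. Of 7 tested monocyte and macrophage markers, 5 rose in hypoxia vehicle against normoxia vehicle fetuses (CD14, CD86, FCGR1A, FCGR2B and FCER1G) and 4 in hypoxia ketamine against normoxia ketamine fetuses; CD4 was above background on no array. Their summed signal was 1860, 4370, 1420 and 1710 in hypoxia ketamine fetuses, 1370, 2730, 4350 and 2090 in hypoxia vehicle fetuses, 923 to 1220 in normoxia ketamine fetuses and 971 to 1090 in normoxia vehicle fetuses. Among the hypoxia vehicle arrays the sum was lower on replicates 1 and 4, where the members were brightest, than on replicates 2 and 3. The sum weighs bright probes most, and single markers differed. CD86, FCGR2B, FCER1G and LYZ followed the sum. ITGAM was highest on replicate 3 (52.6), but it cleared background on only 1 of the 4 hypoxia vehicle arrays. FCGR1A was highest on replicate 4 (352, against 246 and 293 on replicates 2 and 3). CD14 was higher on replicates 1 and 4 (420 and 494) than on replicate 2 (358), and highest on replicate 3 (621). The cathelicidin CATHL3, the single neutrophil marker tested, had 1050, 21400, 912 and 7880 in hypoxia ketamine fetuses and 484, 7200, 29000 and 866 in hypoxia vehicle fetuses. It had 174 to 663 in normoxia ketamine fetuses and 514 to 2090 in normoxia vehicle fetuses, so hypoxia vehicle replicates 1 and 4 lay within the normoxia range. SELP, an adhesion molecule of activated endothelium and platelets, rose in hypoxia vehicle against normoxia vehicle fetuses (4.85 ± 1.15) and was highest on replicates 1 and 4, at 892 and 3870, against 263 and 183 on replicates 2 and 3. It was the single gene called higher of 5 tested endothelial markers, whose median was -0.305; KDR, a receptor of VEGF, fell by 0.38, and PECAM1, TEK and TIE1 (-0.29 to -0.54) did not pass. In hypoxia ketamine against hypoxia vehicle fetuses SELP fell by 2.54, and without hypoxia vehicle replicates 1 and 4 it did not pass there. AGTR1, the angiotensin II receptor gene listed with juxtaglomerular and interstitial markers, fell by 1.09 ± 0.31 in hypoxia vehicle against normoxia vehicle fetuses. Its signal was 1490 and 1180 on hypoxia vehicle replicates 1 and 4, the lowest of the 15 arrays, and 2510 and 3060 on replicates 2 and 3. Without replicates 1 and 4, AGTR1 (-0.555) and KDR (-0.37) did not pass. The haemoglobin gene HBB had 9120, 56700, 22800 and 10900 in hypoxia ketamine fetuses, 16700, 19700, 13500 and 47600 in hypoxia vehicle fetuses, 8770 to 28400 in normoxia ketamine fetuses and 11600 to 28700 in normoxia vehicle fetuses. Hypoxia vehicle replicate 4 was thus above all normoxia arrays and replicate 1 within their range, and 0 of the 2 erythroid markers tested passed in either comparison with hypoxia vehicle. AQP1, AQP2 and SLC34A1 passed the test in no comparison. In whole cortex, a change in the number of cells of a type and a change in RNA per cell cannot be told apart, and the part of blood cells and of these other cell types in the members' signal was not tested.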

How the data were processed

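RNA of each fetus was hybridised with Cy3 to 1 one-colour Agilent ovine array. The deposited scanner files hold spot intensities made with Agilent Feature Extraction 10.1.1.1, per the file headers, which subtracts background and detrends each array but does not scale between arrays. The submitters' processing notes name limma. The authors' deposited table of log2 values was used only as an alternative, because 12 of its 15 columns tracked another array of the same group better than their own. In that table the high member values stand under hypoxia vehicle replicates 2 and 3. FOS A_70_P026731, for example, has 14.28 and 14.79 there, against 10.58 and 10.49 under replicates 1 and 4. Replicate numbers in this report are those of the scanner files, and which numbering is right was not tested.

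Here log2 intensity minus each array's 75th percentile was taken, outlier spots were dropped, and 12927 probes well above background on at least 3 arrays were kept. limma 3.58.1 in R 4.3.3 fitted 1 mean per group on all 15 arrays, with two-sided tests, calls at p of at most 0.05 and Benjamini-Hochberg adjustment over all 12927 probes; single probes also had exact permutation tests. Scripts were tested on simulated data. Probe names came from the files, RefSeq identifiers and a hand table; 1656 probes had a name. Text names every member probe, the listed genes with the largest changes among those past the threshold plus those a count needs, and the 5 genes most like each member; a few genes that these rules pick are not reported here. Members and lists were chosen with earlier results of these data known. Fetuses are separate animals, but same-numbered arrays did not deviate together (r of -0.292 to 0.37), so no pairing was used. Alternatives were background correction, scaling, filters, groups fitted, slide, array weights, replicate block and left-out arrays.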

Additional observations from a re-analysis of the deposited data

Results flagged for a closer look

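Among 42 sets of 4 arrays (14 member probes in 3 groups), 1 held an array far from the other 3, and chance gives about 1 in 20. It was FOS A_70_P016317 in normoxia ketamine fetuses, where replicate 4 had a signal of 106 against 25.0, 22.2 and 27.6 on replicates 1 to 3. On the log2 scale the gap was 0.86 of the group's range. This check looks for 1 array apart from the rest, so it can miss hypoxia vehicle, where replicates 1 and 4 were both high. In the 14 tests of the interaction of hypoxia with ketamine, 0 member probes passed the threshold.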

How the results depend on the processing

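Apart from leaving out hypoxia vehicle replicates 1 and 4 together, all 418 member values kept their sign under the alternatives in hypoxia vehicle against normoxia vehicle fetuses, as did all 418 in hypoxia ketamine against hypoxia vehicle fetuses and 404 of 404 for the mean hypoxia effect. In hypoxia ketamine against normoxia ketamine 409 of 418 did, in normoxia ketamine against normoxia vehicle 405 of 418, and for the interaction 389 of 390. Part of these values could not change sign. The permutation test, the filters, the variance prior and fitting only the compared groups keep the difference of group means. So does leaving out an array of a group outside the comparison. These counts are therefore not a measure of how firm the results are. The counts below are of probes past the unadjusted threshold, and the cause of each shift was not tested unless fewer arrays were fitted.

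For hypoxia vehicle against normoxia vehicle, member calls (7) were 3 with only those groups fitted, 2 on slide 1, 0 on slide 2, 11 with array weights, 3 without the 2 arrays that stood apart and 2 without hypoxia vehicle replicates 1 and 4. Leaving out 1 array gave 3 to 14. Calls over all probes (2086) were 1255 with normexp, 1203 on slide 1 and 664 on slide 2, and 1304 to 2453 with 1 array left out.

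For hypoxia ketamine against hypoxia vehicle, member calls (12) were 3 with only those groups fitted, 7 with slide as a block, 2 on slide 1, 0 on slide 2, 4 without the arrays that stood apart, 6 without the arrays with placental lactogen and 0 without hypoxia vehicle replicates 1 and 4, where MYC A_70_P030412 and A_70_P030411 turned to 0.0402 and 0.0337. Leaving out 1 array gave 2 to 14. Calls over all probes (785) were 399 with normexp, 432 with only those groups, 276 on slide 1, 1247 without the arrays that stood apart and 1461 without those with placental lactogen, and 486 to 1606 with 1 array left out.

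For hypoxia ketamine against normoxia ketamine, member calls (0) were 2 with only those groups fitted and 5 without hypoxia vehicle replicates 1 and 4, and 0 to 1 with 1 array left out. Calls over all probes (1121) were 606 on slide 1, 1819 with array weights and 832 to 1341 with 1 array left out. For normoxia ketamine against normoxia vehicle, member calls (0) were 2 with only those groups fitted and 0 whichever array was left out. Calls over all probes (350) were 113 with normexp, 673 with only those groups, 1101 with array weights, 556 without the arrays that stood apart and 211 to 539 with 1 array left out.

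For the interaction, member calls (0) were 1 with quantile normalization, 1 with the deposited table, 1 with probes well above background on all arrays, 4 with array weights and 0 to 9 with 1 array left out. Calls over all probes (407) were 198 with normexp, 229 on slide 1, 931 with array weights, 941 without the arrays that stood apart, 714 without those with placental lactogen and 239 to 986 with 1 array left out. For the mean hypoxia effect, member calls (7) were 2 on slide 1, 0 on slide 2, 3 without the arrays that stood apart, 2 without those with placental lactogen, 3 without hypoxia vehicle replicates 1 and 4 and 5 to 11 with 1 array left out. Calls over all probes (2623) were 1684 with normexp, 1583 on slide 1, 1086 on slide 2, 1742 without the arrays with placental lactogen and 2100 to 2912 with 1 array left out.

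With the replicate number as a block, member calls were 6, 0, 9, 0, 0 and 5 for hypoxia vehicle against normoxia vehicle, hypoxia ketamine against normoxia ketamine, hypoxia ketamine against hypoxia vehicle, normoxia ketamine against normoxia vehicle, the interaction and the mean effect, and calls over all probes were 1819, 1155, 738, 424, 430 and 2410. All 84 member values stayed on the same side of 0. The array numbers are not a pairing by design.

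Normexp moved the share of calls that were higher to 63.2% from 42.7% in hypoxia ketamine against normoxia ketamine, to 53.9% from 42.5% in hypoxia ketamine against hypoxia vehicle and to 52.2% from 35.1% in normoxia ketamine against normoxia vehicle. Quantile normalization gave 51.1% in the last of these. Under normexp the median of all probes was 0.122 in hypoxia ketamine against hypoxia vehicle, against 0.0199, and 0.178 for the interaction, against 0.031. The 3 or 4 arrays a group limit precision, and ZFP36 A_70_P030386 and FOS A_70_P001561 were well above background on 14 and 13 of the 15 arrays.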
